A study of Pinellia ternata with 6 samples.

Results

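Ethylene-responsive factors (ERFs) are plant transcription factors, and 5 unigenes that the study names as ERF are described here across the T2Plus line and the T2 line of Pinellia ternata. They are TRINITY_DN151_c1_g1, TRINITY_DN594_c1_g1, TRINITY_DN11471_c0_g2, TRINITY_DN21800_c0_g1 and TRINITY_DN98068_c0_g1, out of 62591 unigenes in the table analysed. A unigene is the unit of gene in a transcriptome assembled without a genome. The study chose them because their abundance differed between the lines in these samples, by a false discovery rate and a 2-fold change, so the levels below are a description of that choice and no test of it is given. A further ERF unigene, TRINITY_DN86071_c0_g1, which the study names as up-regulated in T2Plus line, was not analysed here. Nor were ERF unigenes that the study does not name. The sum of the 5 is thus not the sum of the whole family, and its balance lacks a named rise.

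The T2Plus line (16x, 2n = 208) was made from the T2 line (8x, 2n = 104) with colchicine, which doubles chromosomes, and per the methods the plant material was bred from a single plant. Both were grown as seedlings for 30 days, and 3 samples of each line were measured by RNA-seq. The study calls them biological replicates. Its methods also state that 5 seedlings per group were mixed before grinding, and do not say if each replicate was a separate mix, so part of the spread may be technical. In whole seedlings, fewer cells of a type and less RNA per cell cannot be told apart.

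Ethylene is a gaseous plant hormone of ripening, senescence, wounding and stress. In Arabidopsis it is sensed by receptors in the membrane of the endoplasmic reticulum, and the signal ends at transcription factors in the nucleus that switch on ERF genes. ERF proteins carry the AP2 DNA-binding domain, bind GCC-rich promoter elements, and act as activators or as repressors depending on the member. The best Swiss-Prot match of TRINITY_DN11471_c0_g2 is ERF110 of Arabidopsis, and the Pfam search of the study found an AP2 domain in it. The KEGG entry of the same annotation row gives an Arabidopsis locus number that was not matched to ERF110 here, so the name stands for the Swiss-Prot match alone. The other ERF unigenes are known here only as ERF, without the subgroup that would tell an activator from a repressor. TRINITY_DN11471_c0_g2, TRINITY_DN594_c1_g1 and TRINITY_DN98068_c0_g1 stand in the study's list of cellular response to ethylene stimulus.

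Levels are FPKM (fragments scaled by transcript length and library size), which the authors estimated for each transcript isoform and scaled between samples. The isoforms of a unigene were summed. The worth of 1 read was estimated as the commonest ratio of low values of the same unigenes between samples. Relative to replicate 1 of T2 line, it was 0.929 to 1.10 in the T2Plus samples. In T2 line it was 0.739 in replicate 2 and 1.12 in replicate 3. A smaller worth can come from more reads, but the scaling between samples also moves it. Replicate 2 of T2 line had the smallest worth, and the study lists the most clean reads for it. It also had the lowest number of unigenes above 0 (28177, against 30699 to 33997 in the others). Of the 13 unigenes of the photosynthetic electron transport chain taken as markers of green tissue, 8 were in the table, and all were above 0 in each sample and called lower in T2Plus line, with a summed level of 463 to 508 FPKM in T2Plus line and 1080 to 1426 FPKM in T2 line. Over all unigenes tested 6.30% were called lower, and the study had itself called these markers on this contrast, so their count is no independent evidence. The part of green tissue in the falls described below was not tested.

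The ERF unigenes changed in opposite directions. In T2Plus line 3 of them were lower than in T2 line and 2 were higher, and for each of the 5 the samples of the lines did not overlap. By limma, with an adjusted p up to 0.05 and a change of 2-fold or more as the limits of a call, 2 were called higher and 3 lower. Of the 28536 unigenes tested 13.5% were called, 7.22% higher and 6.30% lower, and the lines did not overlap in 36.0%, with T2Plus line higher in 19.5% and lower in 16.4%. Since the study picked the 5 by this contrast, nothing is read from their count.

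TRINITY_DN151_c1_g1 was the most abundant of them in every sample. It had 31.8, 33.3 and 34.7 FPKM in replicates 1, 2 and 3 of T2Plus line, against 82.95, 120.0 and 93.6 FPKM in those of T2 line. The T2Plus samples lay within 3 FPKM of each other, while replicate 2 of T2 line stood above the other T2 samples. The average was 33.2 ± 1.43 FPKM in T2Plus line and 98.9 ± 19.1 FPKM in T2 line (SD, n = 3 each), a log2 fold change of -1.53 with a standard error of 0.15 on the log2(FPKM + 1) scale. It exceeded 89.7% of all unigenes tested in T2Plus line and 96.8% in T2 line.

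TRINITY_DN594_c1_g1 had 9.27, 9.94 and 10.2 FPKM in T2Plus line, against 19.9, 27.6 and 20.6 FPKM in T2 line. Its fall was the smallest, and T2Plus line kept 43.2% of the T2 level. The log2 fold change of -1.12 (standard error 0.18) lies just inside the 2-fold limit that the study used. Without replicate 2 of T2 line, its highest sample, it was -0.98, just outside that limit. Both values are on the log2(FPKM + 1) scale, which shrinks the change. The ratio of the T2Plus to the T2 mean without that sample was 0.484, still a change of more than 2-fold.

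TRINITY_DN11471_c0_g2, whose best Swiss-Prot match is ERF110, had 4.89, 4.60 and 2.53 FPKM in T2Plus line, against 19.4, 24.8 and 16.4 FPKM in T2 line. T2Plus line kept 19.8% of the T2 level, the smallest share among the 3 that fell. The log2 fold change was -2.10 with a standard error of 0.28. Replicate 3 of T2Plus line was the lowest of its line.

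TRINITY_DN21800_c0_g1 had 16.7, 16.5 and 15.1 FPKM in T2Plus line, against 3.10, 3.49 and 3.01 FPKM in T2 line. All 3 samples of each line were close together. The T2Plus average was 5.04 times that of T2 line, and the log2 fold change was 2.03 with a standard error of 0.19. The added 1 FPKM shrinks the fold change of a weakly expressed unigene, and with a pseudocount of 0.1 in place of 1 the value was 2.30. It exceeded 80.6% of the unigenes tested in T2Plus line and 47.9% in T2 line.

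TRINITY_DN98068_c0_g1 had 2.60, 2.56 and 4.35 FPKM in T2Plus line, while all samples of T2 line listed it at 0. No fold change is given against a line listed at 0, since an exact 0 can also be a failed estimate. It passed the filter of at least 1 FPKM in at least 3 samples only through T2Plus line, so that it could not have passed without differing. Once scaled by the worth of 1 read, the T2Plus values matched 6, 5 and 9 fragments within 3%, the smallest whole numbers that do so. Its rise thus rests on about 20 fragments, or a multiple of that number, in the 3 T2Plus libraries together. With no filter on low values it was not called.

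**Figure D1:**
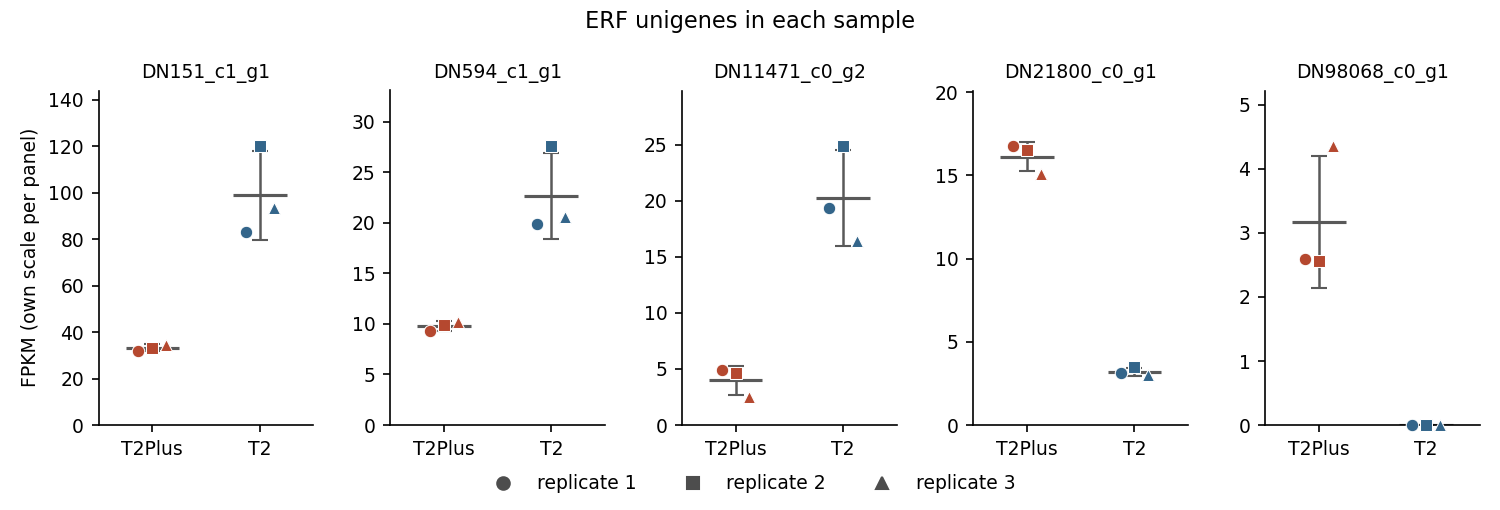
FPKM of each ERF unigene (vertical axis, an own scale for each panel, starting at 0) in T2Plus line and T2 line. Each symbol is 1 sample, its shape gives the replicate number, the line is the mean and the bar the SD (n = 3). DN151_c1_g1, DN594_c1_g1 and DN11471_c0_g2 lay lower in every T2Plus sample than in any T2 sample, and DN21800_c0_g1 and DN98068_c0_g1 lay higher.

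The order of the ERF unigenes differed between the lines in its middle, while TRINITY_DN151_c1_g1 came first and TRINITY_DN98068_c0_g1 last in both. In T2Plus line TRINITY_DN151_c1_g1 was followed by TRINITY_DN21800_c0_g1 at 16.1 FPKM, TRINITY_DN594_c1_g1 at 9.79 FPKM, TRINITY_DN11471_c0_g2 at 4.01 FPKM and TRINITY_DN98068_c0_g1 at 3.17 FPKM. The last pair overlapped between samples (2.53 to 4.89 and 2.56 to 4.35 FPKM), and the other neighbours did not. In T2 line TRINITY_DN151_c1_g1 was followed by TRINITY_DN594_c1_g1 at 22.7 FPKM and TRINITY_DN11471_c0_g2 at 20.2 FPKM, which overlapped, and by TRINITY_DN21800_c0_g1 at 3.20 FPKM. TRINITY_DN21800_c0_g1 thus stood above TRINITY_DN594_c1_g1 and TRINITY_DN11471_c0_g2 in T2Plus line and below both in T2 line.

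The sum of the 5 was 65.3, 66.9 and 66.8 FPKM in replicates 1, 2 and 3 of T2Plus line, against 125.3, 175.9 and 133.6 FPKM in those of T2 line. Each T2Plus sample was below each T2 sample, and the T2Plus samples were far closer together. The average was 66.3 ± 0.884 FPKM in T2Plus line and 144.9 ± 27.1 FPKM in T2 line (SD, n = 3 each), so that T2Plus line held 45.8% of the T2 sum (log2 ratio -1.13). Taken over the single pairs of a T2Plus and a T2 sample, the log2 ratio of the sums ran between -1.43 and -0.91. The sum took 0.0125% of all FPKM in the table in T2Plus line and 0.0246% in T2 line. Without replicate 2 of T2 line the ratio of T2Plus to T2 was 0.512 in place of 0.458.

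TRINITY_DN151_c1_g1 dominated the sum in both lines, though less in T2Plus line. It held 48.7%, 49.7% and 51.9% of the sum in the T2Plus samples, against 66.2%, 68.2% and 70.1% in the T2 samples. The share of TRINITY_DN594_c1_g1 differed least, with 14.8 ± 0.524% in T2Plus line and 15.6 ± 0.230% in T2 line (SD, n = 3 each), and each T2Plus sample was below each T2 sample. The share of TRINITY_DN11471_c0_g2 was 6.05 ± 1.98% in T2Plus line and 14.0 ± 1.60% in T2 line. TRINITY_DN21800_c0_g1 held 24.3 ± 1.55% in T2Plus line and 2.24 ± 0.248% in T2 line, and TRINITY_DN98068_c0_g1 4.77 ± 1.51% in T2Plus line and none of the sum in T2 line. An effective number of members, the inverse of the summed squared shares, was 2.95 ± 0.0821 in T2Plus line and 1.97 ± 0.0818 in T2 line. The sum was thus spread over more unigenes in T2Plus line.

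**Figure D2:**
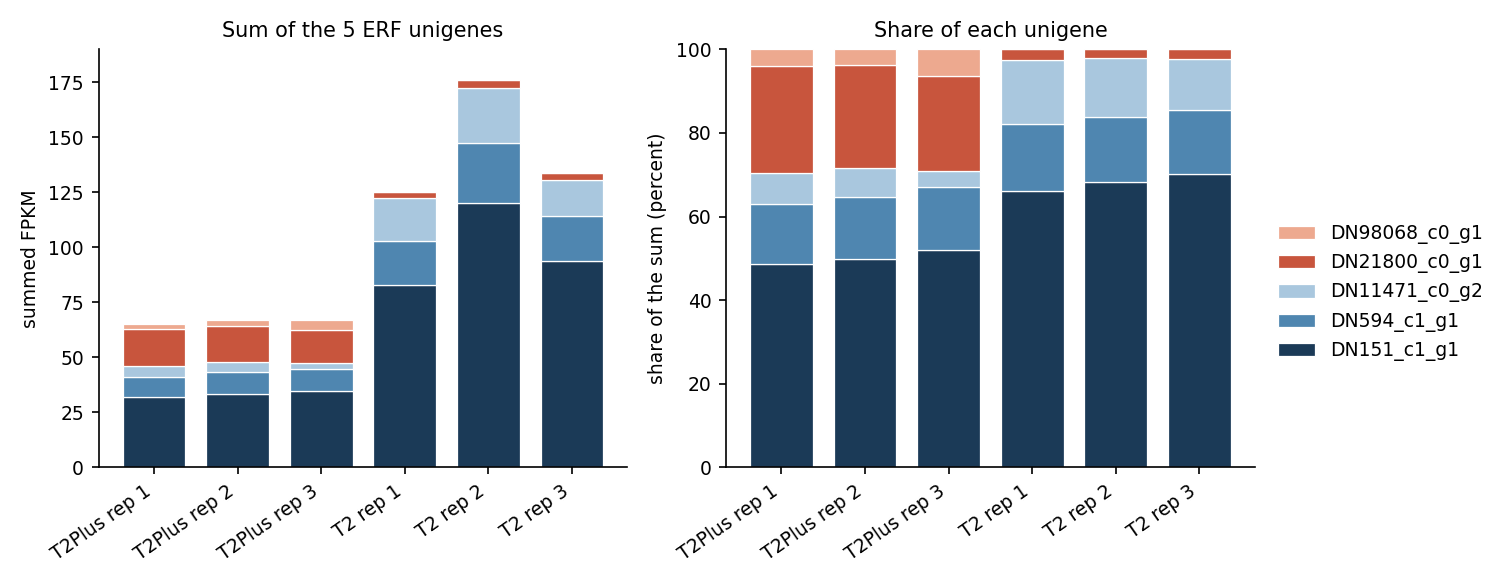
Left, the summed FPKM of the 5 ERF unigenes in each sample, and right, the share of each unigene in that sum in percent, with the T2Plus samples before the T2 samples. Each bar is 1 sample and each colour 1 unigene, blue for those that fell and red for those that rose. The sums were 65.3 to 66.9 FPKM in T2Plus line and 125.3 to 175.9 FPKM in T2 line, and the red part was 28.5% to 29.6% of the T2Plus sums and 1.98% to 2.48% of the T2 sums.

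The rises offset a small part of the falls. Together the 3 unigenes that fell decreased by 94.7 FPKM, and 69.3% of this loss came from TRINITY_DN151_c1_g1, 17.1% from TRINITY_DN11471_c0_g2 and 13.6% from TRINITY_DN594_c1_g1. The 2 that rose gained 16.1 FPKM, of which 80.3% came from TRINITY_DN21800_c0_g1 and 19.7% from TRINITY_DN98068_c0_g1. The gain was 17% of the size of the loss, and the sum fell by 78.6 FPKM. The members that fell summed to 47.0 ± 0.953 FPKM in T2Plus line and 141.7 ± 26.9 FPKM in T2 line, and those that rose to 19.3 ± 0.205 FPKM in T2Plus line and 3.20 ± 0.251 FPKM in T2 line (SD, n = 3 each). For each 100 FPKM of unigenes that fell there were 41.0 FPKM of those that rose in T2Plus line and 2.29 FPKM in T2 line.

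The balance turned on TRINITY_DN151_c1_g1. Without it, the other 4 summed to 33.5, 33.6 and 32.2 FPKM in the T2Plus samples, against 42.4, 55.9 and 40.0 FPKM in the T2 samples, a log2 ratio of -0.48. The lines still did not overlap. The gain of 16.1 FPKM was 55.3% of the loss in TRINITY_DN594_c1_g1 and TRINITY_DN11471_c0_g2, which together decreased by 29.1 FPKM. In these 4 the unigenes that rose held 58.3% of the sum in T2Plus line and 7.03% in T2 line.

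**Figure D3:**
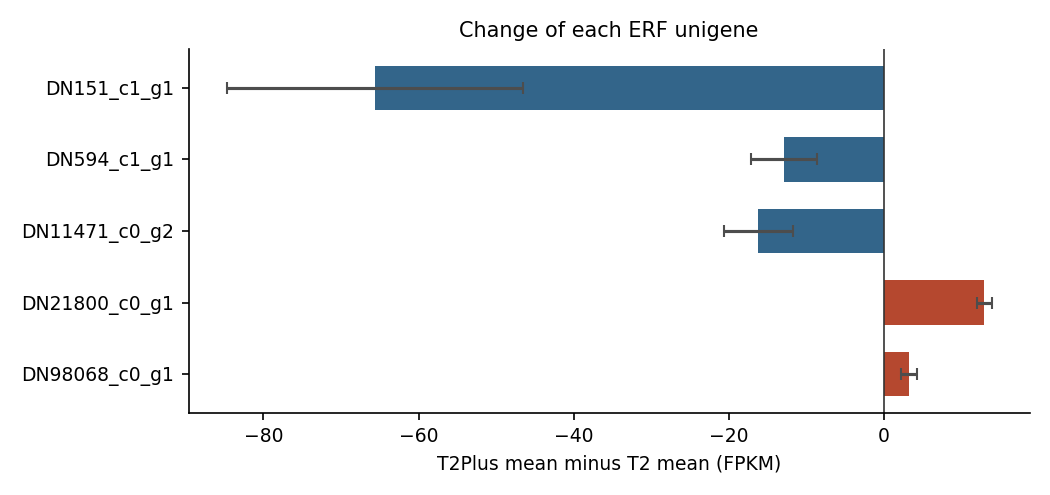
Difference between the line means of each ERF unigene in FPKM (horizontal axis, T2Plus minus T2, blue for a fall and red for a rise). The bars start at 0, and the error bars are the square root of the summed variances of the lines (n = 3 each). DN151_c1_g1 fell by 65.6 FPKM, more than any of the other 4 changed, and DN21800_c0_g1 rose by 12.9 FPKM.

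Replicate spread differed between the lines and between the ERF unigenes. In T2Plus line the coefficient of variation was 4.29% for TRINITY_DN151_c1_g1, 4.80% for TRINITY_DN594_c1_g1 and 5.49% for TRINITY_DN21800_c0_g1. It was 32.1% for TRINITY_DN11471_c0_g2 and 32.4% for TRINITY_DN98068_c0_g1, the least abundant there. In replicate 3 of T2Plus line TRINITY_DN98068_c0_g1 was at its highest and TRINITY_DN21800_c0_g1 and TRINITY_DN11471_c0_g2 at their lowest of that line. The sum of the members that rose varied less than either of them, since these deviations ran in opposite directions.

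In T2 line the 3 unigenes that fell varied by 18.7% to 21.2%, and TRINITY_DN21800_c0_g1 by 7.85%. Replicate 2 was the highest T2 sample for each of these. It stood above the mean of replicates 1 and 3 by 35.9% for TRINITY_DN151_c1_g1, 36.3% for TRINITY_DN594_c1_g1, 38.9% for TRINITY_DN11471_c0_g2 and 14.0% for TRINITY_DN21800_c0_g1. Replicates 1 and 3 also differed, with 82.95 and 93.6 FPKM for TRINITY_DN151_c1_g1 and 19.4 and 16.4 FPKM for TRINITY_DN11471_c0_g2. Replicate 2 of T2 line was the highest T2 sample for 38.3% of the 19365 unigenes tested that were above 0 in each T2 sample. With 3 samples an equal split gives each about 1 in 3, and this share lies near that. For the 9262 of these in the top tercile by mean level of all unigenes tested, the share was 50.6%. The SDs of the unigenes that fell, on the log2(FPKM + 1) scale, were 0.25 to 0.29 in T2 line, near the median of 0.28 over the top tercile of all unigenes tested. In T2Plus line the median was 0.16, and the SDs were 0.06 for TRINITY_DN151_c1_g1 and TRINITY_DN594_c1_g1 and 0.41 for TRINITY_DN11471_c0_g2. The shares were little touched by that sample, with 68.2% for TRINITY_DN151_c1_g1 in replicate 2 and an average of 68.1% in replicates 1 and 3 of T2 line. Small spread had a part in the choice of these unigenes by the study, so these values are a description.

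Only TRINITY_DN21800_c0_g1 had more than 1 isoform in the table, as 4.25% of all unigenes did. Its isoform i3 had 12.9, 14.0 and 11.3 FPKM in T2Plus line, against 2.66, 3.15 and 3.01 FPKM in T2 line. Isoform i2 had 3.80, 2.49 and 3.78 FPKM in T2Plus line, against 0.446, 0.337 and 0 FPKM in T2 line. Both were higher in each T2Plus sample than in any T2 sample, and i3 carried 76.1% of the rise of the unigene and i2 the other 23.9%.

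The share of isoform i2 was 22.7%, 15.1% and 25% in the T2Plus samples, against 14.4%, 9.67% and 0% in the T2 samples. Replicates 1, 2 and 3 of T2 line matched 1, 1 and 0 fragments of i2 within 3%, and those of T2Plus line 9, 5 and 8. These are the smallest whole numbers that do so. The T2 share thus rests on about 2 fragments, or a multiple of that number. The shares did not overlap between the lines, and their difference was not tested. The other ERF unigenes were each present as 1 isoform, numbered i7 for TRINITY_DN594_c1_g1, i4 for TRINITY_DN151_c1_g1 and i2 for TRINITY_DN11471_c0_g2 and TRINITY_DN98068_c0_g1. Isoforms outside the table were not analysed here.

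The table holds 2 further unigenes with the cluster number of a member. TRINITY_DN21800_c0_g3, from the same component as TRINITY_DN21800_c0_g1, had 4.47, 0.961 and 3.62 FPKM in T2Plus line, against 3.47, 2.59 and 4.40 FPKM in T2 line. The lines overlapped, and the log2 fold change of -0.27 (standard error 0.48) did not pass the test (adjusted p = 0.756 from limma over all unigenes tested, 0.576 to 0.918 under the alternatives). Without replicate 2 of T2Plus line, its lowest sample, the value was 0.19. The study's choice did not use this unigene. Summed with it, the level was 19.1 ± 1.90 FPKM in T2Plus line and 6.68 ± 0.676 FPKM in T2 line (SD, n = 3 each), which is 2.86 times the T2 level, and TRINITY_DN21800_c0_g1 made up 84.7 ± 8.53% of it in T2Plus line and 48.4 ± 8.44% in T2 line. Unigenes of 1 component share sequence, so that reads could be assigned to either. TRINITY_DN594_c0_g1, from another component, was above 0 only in replicate 1 of T2Plus line (3.72 FPKM) and replicate 2 of T2 line (3.01 FPKM) and was not tested.

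**Figure D4:**
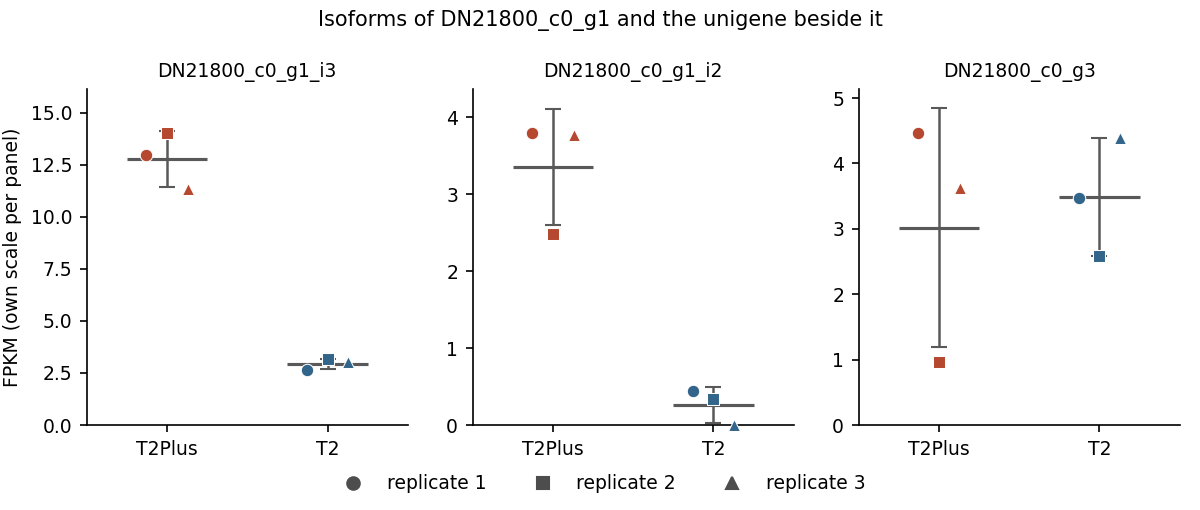
FPKM (vertical axis, an own scale for each panel, starting at 0) of isoforms i3 and i2 of DN21800_c0_g1 and of DN21800_c0_g3 of the same component, in T2Plus line and T2 line. Each symbol is 1 sample, its shape gives the replicate number, the line is the mean and the bar the SD (n = 3). Both isoforms were higher in every T2Plus sample, and DN21800_c0_g3 overlapped between the lines at 0.961 to 4.47 FPKM in T2Plus line and 2.59 to 4.40 FPKM in T2 line.

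The profile of each ERF unigene was compared with those of all unigenes tested by the root mean square difference of log2(FPKM + 1) over the 6 samples, each profile centred on its own mean. The nearest to TRINITY_DN151_c1_g1 were TRINITY_DN20751_c0_g1 (0.0638) and TRINITY_DN32043_c1_g1 (0.0662), both of them listed at 0 in every T2Plus sample and at 1.58 to 2.92 FPKM in T2 line. For a unigene as weak as these the pseudocount sets the size of the change. The nearest to TRINITY_DN594_c1_g1 were TRINITY_DN16342_c0_g1 (0.030), with 41.1, 44.8 and 45.6 FPKM in T2Plus line and 83.7, 112.7 and 84.6 FPKM in T2 line, and TRINITY_DN29_c2_g1 (0.0425). TRINITY_DN16342_c0_g1 stands in the study's list of response to fungus.

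The nearest to TRINITY_DN11471_c0_g2 were TRINITY_DN31386_c1_g1 (0.0839) and TRINITY_DN4605_c1_g1 (0.171), and 38 unigenes lay within 0.25 of it. Within the same distance there were 222 to 823 unigenes for each of the other ERF unigenes, so that its profile had the fewest close matches among the 5. The nearest to TRINITY_DN21800_c0_g1 were TRINITY_DN17863_c0_g1 (0.0719), with 19.4, 17.5 and 17.7 FPKM in T2Plus line and 3.44, 3.53 and 3.54 FPKM in T2 line, and TRINITY_DN248413_c0_g1 (0.0772). The latter had 2.74 to 3.38 FPKM in T2Plus line and was listed at 0 in T2 line, so the pseudocount sets the size of its change. Those nearest to TRINITY_DN98068_c0_g1 were TRINITY_DN193267_c0_g1 (0.0633) and TRINITY_DN76445_c0_g1 (0.0654), both listed at 0 in T2 line. Among themselves, TRINITY_DN594_c1_g1 and TRINITY_DN151_c1_g1 differed by 0.207 and TRINITY_DN21800_c0_g1 and TRINITY_DN98068_c0_g1 by 0.242. Neither pair stood out, as 501 unigenes were closer to TRINITY_DN594_c1_g1 than TRINITY_DN151_c1_g1 was. Likewise 280 were closer to TRINITY_DN21800_c0_g1 than TRINITY_DN98068_c0_g1 was.

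The study lists 17 unigenes under cellular response to ethylene stimulus, of which 13 were in the table. Of these 3 were called higher and 10 lower in T2Plus line, with a median log2 fold change of -1.25, against 0.10 over all 28536 unigenes tested. Leaving out the ERF unigenes described here, 2 were higher and 8 lower, against 7.22% higher and 6.30% lower over all unigenes tested. The largest fall with a level above 0 in both lines was in TRINITY_DN4442_c0_g1, with 0.630, 1.48 and 0.700 FPKM in T2Plus line, against 24.8, 31.3 and 21.9 FPKM in T2 line (log2 fold change -3.81). The largest rise with a level above 0 in both lines was in TRINITY_DN6422_c0_g2, with 12.4, 16.0 and 12.1 FPKM in T2Plus line, against 3.10, 5.28 and 3.46 FPKM in T2 line (log2 fold change 1.56). No fold is given for TRINITY_DN180125_c0_g1, at 3.77, 3.63 and 3.05 FPKM in T2Plus line and listed at 0 in T2 line, nor for TRINITY_DN13311_c0_g1, listed at 0 in T2Plus line and at 4.50, 4.06 and 7.04 FPKM in T2 line. Every unigene of this list had been called by the study in the same libraries, so its counts say nothing independent on direction. With no filter on low values, 1 was called higher, and TRINITY_DN98068_c0_g1 was not.

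The study names 18 unigenes of the other transcription factor families bHLH, HD-ZIP, MYB, MYB related and WRKY, of which 11 were in the table and none of them HD-ZIP. Of these 11, 1 was called higher, 9 lower and 1 was not called, against 7.22% higher and 6.30% lower over all unigenes tested. Those absent include rises that the study names, the HD-ZIP unigenes and TRINITY_DN701_c1_g1 of bHLH. The named falls that are absent are TRINITY_DN1351_c1_g1, TRINITY_DN567_c0_g2 and TRINITY_DN3364_c2_g1. The counts and family sums thus do not give the balance of all that the study names. The called rise was in TRINITY_DN3051_c0_g1 of the bHLH family, listed at 0 in T2 line and at 5.29, 2.10 and 11.1 FPKM in T2Plus line. It was not called without replicate 1 of T2Plus line or without any single T2 sample. The largest fall was in TRINITY_DN12750_c0_g2 of the WRKY family, with 0.574 ± 0.197 FPKM in T2Plus line and 14.8 ± 2.42 FPKM in T2 line (SD, n = 3 each; log2 fold change -3.33). The summed level in T2Plus line was 0.445 of that in T2 line for MYB (2 unigenes), 0.371 for MYB related (1 unigene), 0.168 for WRKY (6 unigenes) and 0.477 for bHLH (2 unigenes, of which TRINITY_DN1628_c0_g1 is also in the ethylene list), beside 0.458 for the ERF unigenes. These families were also chosen on this contrast, and no difference between them and the ERF unigenes was tested.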

How the data were processed

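Adapters and low-quality reads were removed by the authors with FastQC 0.11.5 and Trimmomatic 0.36 (versions from the submitters' processing notes). The reads were assembled with Trinity at a k-mer of 25 and mapped back, and the authors deposited an FPKM value per isoform and sample, made with RSEM and scaled by TMM. That the unit is FPKM follows the methods of the study, and which aligner was run is not given in the sources used here. With 65535 isoforms, the table is a part of the assembly. It has no read totals, so relative depth was taken from the commonest ratio of low values (under 6 FPKM) between samples.

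Isoforms were summed per unigene. A unigene was tested if it reached 1 FPKM in 3 or more samples, which left 28536 of 62591. T2Plus line was set against T2 line on log2(FPKM + 1) by limma 3.58.1 (run in R 4.3.3), with the variance trended on abundance and p-values adjusted after Benjamini and Hochberg. Sums, shares and likeness were computed with Python 3.11.15. In a simulation of this comparison over 25687 unigenes, the test found 80 of 100 unigenes given a log2 change of 2 and 94 of the 100 given 3, with 12 false calls. The changes were given only to more abundant unigenes. By mean log2(FPKM + 1) all of these lay above TRINITY_DN21800_c0_g1, TRINITY_DN11471_c0_g2 and TRINITY_DN98068_c0_g1. The numbers found therefore do not cover unigenes as weak as these members. The members and lists were chosen with earlier results of these data known. The named unigenes are the members, those sharing their cluster number, the largest called rise and fall of each list, and the 2 nearest profiles of each member. Samples of the lines with the same replicate number were not treated as pairs. The alternatives tried are in the closing section.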

Additional observations from a re-analysis of the deposited data

How the results depend on the processing

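Direction held for each fold change of the ERF unigenes and for their sum in every alternative. Between 4 and 5 of them were called. TRINITY_DN98068_c0_g1 was not called with no filter (every unigene above 0 in any sample; adjusted p from limma 0.0708) and fell outside a stricter filter on the mean (5 FPKM), and TRINITY_DN594_c1_g1 was not called without replicate 2 of T2 line. The log2 fold change of TRINITY_DN21800_c0_g1 was 2.30 with a pseudocount of 0.1, 2.17 with 0.5, 1.80 with its highest isoform alone and 2.27 after rescaling every sample to 1000000 in total. Under that rescaling TRINITY_DN98068_c0_g1 was 5.94 higher in T2Plus line, in units of the new total, against 3.17 FPKM before it. The samples had summed to 527915 to 626556 FPKM, so rescaling enlarges every value by construction. Leaving out each sample in turn gave -0.55 to 0.19 for TRINITY_DN21800_c0_g3, the 0.19 without replicate 2 of T2Plus line. Without TRINITY_DN151_c1_g1 the log2 ratio of the sums was -0.48. The share of the members that rose was then 58.3% in T2Plus line and 7.03% in T2 line. TRINITY_DN594_c1_g1, the highest of the other 4 by its mean over all samples, held 29.6% in T2Plus line and 49.2% in T2 line. In T2Plus line alone TRINITY_DN21800_c0_g1 was the highest of these, at 16.1 FPKM against 9.79 FPKM. With the highest isoform alone the share of TRINITY_DN151_c1_g1 in T2Plus line was 52.8% and that of the members that rose 25.3%. Quantile normalization put the share of the members that rose at 2.53% in T2 line. The cause of these shifts was not tested, beyond what the larger unit and leaving out a member or an isoform do by construction.

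Over all unigenes, 2061 were called higher and 1799 lower. No filter gave 1073 and 1142, the stricter filter gave 753 and 1050, and leaving out each sample in turn gave 1463 to 1947 higher and 1270 to 1628 lower. The higher calls were 53.4% of all calls, 58.9% after rescaling and 41.8% with the stricter filter. Rescaling moved the median log2 fold change of all unigenes by 0.129 and quantile normalization by -0.109. In the ethylene list 1 was called higher with no filter and 1 with the stricter filter, and among the other transcription factors 0 in both, with 0 to 1 on leaving out each sample. Same-numbered samples of the lines did not deviate together (r across unigenes 0.0366, -0.0327 and -0.0665), so the numbers were not taken as pairs, and not every sample correlated best with its own number. With a replicate block 1169 were called higher and 1146 lower, and 0 of the other transcription factors higher. The table holds no read counts, and no counting interval was computed for values near 0.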
